A study of Mus musculus with 21 samples.

Results

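The genes described here are 8 genes of cholesterol synthesis. *Hmgcs1*, *Idi1*, *Fdps*, *Fdft1*, *Sqle*, *Lss* and *Cyp51* encode enzymes of the route, and *Srebf2* encodes SREBP2, the transcription factor that controls them. They were chosen by name, with earlier results of these data known. All 8 were found among the 46517 Ensembl genes of the deposited count table. Bulk RNA-sequencing was performed on polyA RNA from frozen left ventricle of 4 control (*Notch3*+/+) mice and 3 *Notch3*-/- mice, both C57BL/6J and 10 to 14 months old. The *Notch3*-/- mice carry *lacZ* inserted by gene targeting into *Notch3*, so the gene is disrupted in every cell of the animal, and the sexes of the sequenced mice are not given. Each mouse gave 3 technical libraries, which were added up, and each mouse is 1 replicate. Total counts were 3091461, 4638786, 4208205 and 3046326 for the control group (mice 1 to 4) and 3828763, 5167869 and 5086740 for the *Notch3*-/- group (mice 1 to 3).

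Animal cells build cholesterol from acetyl-CoA. The early enzymes make mevalonate and from it isoprenoid units, squalene synthase joins these into squalene, and the late enzymes close the rings and trim the sterol. When the membrane of the endoplasmic reticulum is poor in cholesterol, SCAP carries SREBP2 to the Golgi, where proteases release the part that enters the nucleus and activates the genes of the route. The liver is a main site of cholesterol synthesis in the body.

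Levels are given as counts per 1000000 (CPM) after TMM scaling, a correction for the makeup of each library. The targeted gene, *Notch3*, had 57.3, 42.1, 57.6 and 61.8 CPM in control mice 1 to 4 and 6.01, 7.57 and 4.73 CPM in *Notch3*-/- mice 1 to 3. The groups did not overlap, in the direction the genotype labels give. The log2 fold change of *Notch3* was -3.16 (SE 0.23, FDR 0.00173, quasi-likelihood test of edgeR, adjusted over all genes tested by Benjamini-Hochberg). The tissue was checked with 10 cardiomyocyte genes, all of which had counts in every mouse. Their summed level was 22973 to 31616 CPM in control mice and 20734 to 31213 CPM in *Notch3*-/- mice, and *Ttn*, which encodes titin, was the most abundant of them with 9153 to 15221 CPM over the 7 mice. All 10 had a negative log2 fold change (median -0.24), and 0 were called by edgeR, DESeq2 or limma-voom. At an unadjusted p below 0.05 in edgeR 0 of them were lower, beside 3.05% of all genes tested. Their median log2 difference from control was 0.03, -0.41 and -0.33 in *Notch3*-/- mice 1 to 3, and mouse 2 had the lowest sum of the 7 mice.

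*Notch3*-/- mice 1 and 2 stood apart from the other 5 mice in genes of hepatocytes. The summed level of 24 hepatocyte genes was 62.6, 184, 22.1 and 35.7 CPM in control mice 1 to 4 and 8328, 15025 and 176 CPM in *Notch3*-/- mice 1 to 3. *Notch3*-/- mouse 3 thus lay below control mouse 2 by this sum, and *Notch3*-/- mice 1 and 2 far above every other mouse. The most abundant gene of the list by the mean over the 7 mice was *Alb*, which encodes albumin, with counts of 68, 385, 10 and 32 in the control group (mice 1 to 4) and of 6240, 8913 and 354 in the *Notch3*-/- group (mice 1 to 3). *Apoa1*, which encodes an apolipoprotein of HDL, had counts of 3 to 49 in the control group and of 1298, 3079 and 57 in the *Notch3*-/- group. *Cps1*, an enzyme of the urea cycle, had counts of 7, 16, 1 and 0 in the control group and of 1343, 4634 and 23 in the *Notch3*-/- group. In mouse 3 of the *Notch3*-/- group, 10 of the 21 hepatocyte genes that passed the expression filter were above every control mouse, beside 20.1% of all genes tested. All but 4 of the 21 passed the filter through the high *Notch3*-/- mice, so this count is a description only. Whether mouse 3 is free of the signal was not tested. Of the 24 genes, 3, 0, 7 and 8 were at 0 counts in control mice 1 to 4 and none in the *Notch3*-/- mice. In the genotype test all 21 tested hepatocyte genes had a positive log2 fold change (median 7.06), and 4 of the 21 reached the filter's level in at least 3 control mice. EdgeR called 0 of the 21, with 21 at an unadjusted p below 0.05, beside 7.34% of all genes tested. Apart from those 4, the genes were tested through the high *Notch3*-/- mice. This count and the hepatocyte counts of the other fits that follow are therefore descriptions only. DESeq2 called 24 of 24, beside 3.37% of all genes, and limma-voom on the 21 libraries 1 of 7, *Alb*, beside 0.491%. EdgeR on every gene with a count called 24 of 24, beside 2.18%. Without *Notch3*-/- mouse 3, which leaves only the high *Notch3*-/- mice, edgeR called 24 of 24 too, beside 6.02%. These values stand beside every result below, and their part in those results was not tested. In bulk tissue, fewer cells of a type and less RNA per cell cannot be told apart.

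Other cell types were read the same way. Adipocyte genes were near 0, with a sum over 7 genes of 0.471 to 11.7 CPM in control mice and 6.29, 22.5 and 0.189 CPM in *Notch3*-/- mice 1 to 3, where *Cidec*, the most abundant by the mean over the 7 mice, made up 18.9 CPM of the 22.5 in mouse 2 and was at 0 in control mouse 3 and *Notch3*-/- mouse 3. Summed vascular smooth muscle genes (6 genes, *Smtn* the most abundant) were at 508 to 710 CPM in control mice and 386 to 648 CPM in *Notch3*-/- mice. Summed endothelial genes (6 genes, *Kdr* the most abundant by the mean over the 7 mice, with *Pecam1* above it in control mice 1 and 2 and *Notch3*-/- mouse 2) were at 707 to 1067 CPM and 970 to 1044 CPM. Macrophage genes (6 genes, *Csf1r* the most abundant by that mean, with *C1qb* above it in control mice 3 and 4) were at 286 to 355 CPM and 323 to 385 CPM, so these 3 lists overlapped between genotypes. The 6 fibroblast genes, with *Dcn* the most abundant by that mean but *Col3a1* above it in *Notch3*-/- mice 2 and 3, were at 1176 to 1403 CPM in control mice and 1320, 1409 and 1702 CPM in *Notch3*-/- mice 1 to 3, where mouse 1 lay within the control range. By edgeR 0 genes of these lists were called; at an unadjusted p below 0.05, 2 of 4 vascular smooth muscle genes and 1 of 6 fibroblast genes were lower, beside 3.05% of all genes tested, and 3 of 6 fibroblast genes were higher, beside 7.34%. *Myh11* of the smooth muscle list was called lower by DESeq2, by limma-voom, by edgeR on every gene with a count and by edgeR without *Notch3*-/- mouse 3. *Col3a1* of the fibroblast list was called higher by the first 3 of these and *Col1a1* by DESeq2; these genes, *Pecam1* and *C1qb* are named after their values were seen.

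Genes regulated by SREBP2 hold sterol regulatory elements, often near a CCAAT box, the site of NF-Y, so the promoters of the 8 genes were read. Windows of 300 bases, 250 before to 50 after the start, were taken from RefSeq (GRCm38.p6) for *Hmgcs1*, *Idi1*, *Lss*, *Cyp51* and *Srebf2*; *Fdps*, *Fdft1* and *Sqle* had no entry. On either strand, the element letters TCACNCCAC were in 1 of the 5 windows, *Hmgcs1*, and in 1.24% of all 32851 windows. The shorter form TCACNCCA, which every match of the longer form contains, was in 2 of 5, *Hmgcs1* and *Srebf2*, and in 4.36% of all windows. CCAAT was in 5 of 5 and in 37.4% of all windows, and GGGCGG, the core of the SP1 site, was in 5 of 5 and in 35.7%. Of 15 windows of 12 other enzymes of the route, 0 held TCACNCCAC, 1 held TCACNCCA (*Msmo1*), 11 held CCAAT and 12 held GGGCGG. Shown are stretches upstream of the RefSeq and GENCODE starts, 5′ to 3′ on the plus strand, with the element in capitals and the CCAAT box too, which lies on the opposite strand and so reads as its reverse complement, at chr13:119690155-119690330 for *Hmgcs1*, chr15:82147087-82147158 for *Srebf2* and chr10:76531523-76531567 for *Lss*.
Hmgcs1: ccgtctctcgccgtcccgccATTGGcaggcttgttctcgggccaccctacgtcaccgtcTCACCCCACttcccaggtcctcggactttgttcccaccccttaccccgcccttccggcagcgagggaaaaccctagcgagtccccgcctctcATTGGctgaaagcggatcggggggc
Srebf2: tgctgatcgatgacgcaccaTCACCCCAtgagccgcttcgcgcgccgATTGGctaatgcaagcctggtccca
Lss: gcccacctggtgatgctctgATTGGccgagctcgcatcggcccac
The element of *Hmgcs1* ended 129 bases before its RefSeq start and the shorter form in *Srebf2* ended 155 bases before its own. RefSeq starts differ from the GENCODE gene starts printed for these genes, to which these distances do not apply. *Lss* is shown for a CCAAT box without the element. These matches are descriptions of letters, and binding was not measured.

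In the comparison of genotypes, 6 of the 8 genes had higher values in *Notch3*-/- mice 1 and 2 than in any control mouse, while *Notch3*-/- mouse 3 lay near the control mice for most of them. *Hmgcs1* (ENSMUSG00000093930, chr13:119690379-119708260, plus strand), the cytosolic synthase that makes HMG-CoA, had 74.1, 73.3, 72.5 and 74.1 CPM in control mice 1 to 4 and 174, 329 and 91.7 CPM in *Notch3*-/- mice 1 to 3. The control mice lay close together and every *Notch3*-/- mouse was above them. *Idi1* (ENSMUSG00000058258, chr13:8885501-8892451, plus strand), which interconverts the isoprenoid units, had 9.22, 20.2, 15.3 and 15.0 CPM in control mice 1 to 4 and 60.7, 154 and 16.8 CPM in *Notch3*-/- mice 1 to 3. Mice 1 and 2 were high and mouse 3 lay below control mouse 2. *Fdps* (ENSMUSG00000059743, chr3:89093588-89101959, minus strand), which makes farnesyl diphosphate, had 16.8, 21.7, 23.3 and 30.1 CPM in control mice 1 to 4 and 62.9, 159.9 and 22.5 CPM in *Notch3*-/- mice 1 to 3, with mouse 3 again inside the control range. *Fdps* shares exons with *Gm43738*, a gene on the same strand with 2432 counts over the 7 mice, and the counting of such reads is not given in the sources used here, so its level is uncertain.

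*Fdft1* (ENSMUSG00000021273, chr14:63145150-63179578, minus strand), squalene synthase and the branch point to sterols, had 88.2, 75.9, 69.9 and 88.8 CPM in control mice 1 to 4 and 84.4, 124 and 92.3 CPM in *Notch3*-/- mice 1 to 3. Here *Notch3*-/- mouse 1 lay within the control range, and mice 2 and 3 above it. *Sqle* (ENSMUSG00000022351, chr15:59315077-59331192, plus strand), squalene epoxidase and a rate-limiting enzyme of the late route, had 2.96, 3.16, 2.35 and 3.34 CPM in control mice 1 to 4 and 25.4, 88.8 and 4.92 CPM in *Notch3*-/- mice 1 to 3. Every *Notch3*-/- mouse was above every control mouse, with counts of 9, 15, 10 and 10 in the control group and of 93, 422 and 26 in the *Notch3*-/- group. *Lss* (ENSMUSG00000033105, chr10:76531588-76557138, plus strand), which closes the sterol rings to lanosterol, had 16.1, 8.22, 8.70 and 14.7 CPM in control mice 1 to 4 and 43.7, 85.6 and 6.05 CPM in *Notch3*-/- mice 1 to 3. Mouse 3 of the *Notch3*-/- group had less *Lss* than every control mouse while mice 1 and 2 had more. *Cyp51* (ENSMUSG00000001467, chr5:4081145-4104746, minus strand), the lanosterol demethylase, had 21.7, 33.7, 28.0 and 31.1 CPM in control mice 1 to 4 and 51.4, 148 and 31.2 CPM in *Notch3*-/- mice 1 to 3, with mouse 3 within the control range.

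*Srebf2* (ENSMUSG00000022463, chr15:82147181-82205379, plus strand) had 33.9, 40.3, 39.5 and 56.1 CPM in control mice 1 to 4 and 47.3, 65.0 and 45.6 CPM in *Notch3*-/- mice 1 to 3. The regulator differed less than most of the enzymes, and *Notch3*-/- mice 1 and 3 lay within the control range. *Lss*, *Hmgcs1* and *Idi1* overlap antisense or unclassified genes on the opposite strand, and *Cyp51* and *Fdft1* overlap *Akap9* and *Ctsb* there, exons included, by 166 and 774 bases of the gene spans. Whether counting used the strand is not given in the sources used here, so reads of such pairs may not be separated. *Mir33*, the miRNA within *Srebf2*, had 0 counts in the 7 mice.

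**Figure D1:**
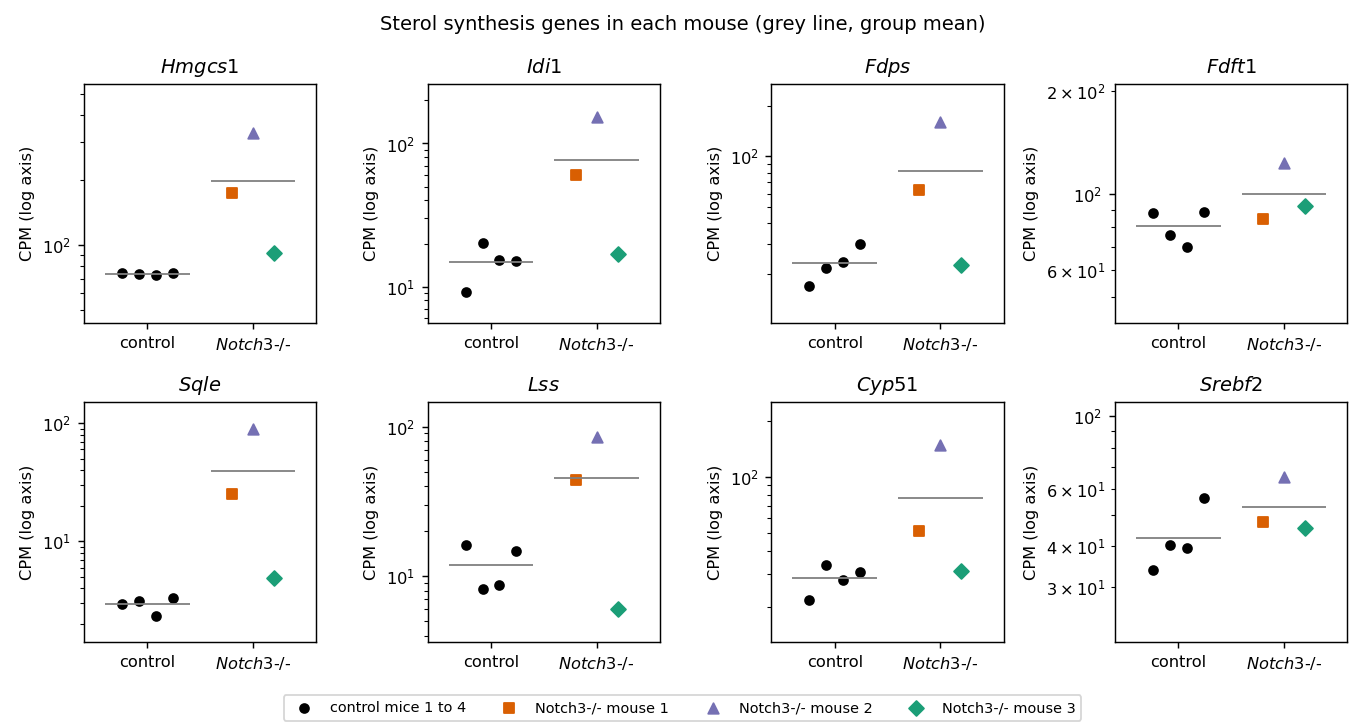
Level of each of the 8 genes in every mouse, in CPM on log axes that differ between panels, with control mice as black circles, *Notch3*-/- mice as coloured symbols and group means as grey lines. *Hmgcs1* and *Sqle* are higher in all 3 *Notch3*-/- mice than in the 4 control mice, and in the other panels at least 1 *Notch3*-/- mouse lies within or below the control range.

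Relative to the control mean, *Sqle* was 8.60-fold in *Notch3*-/- mouse 1, 30.0-fold in mouse 2 and 1.66-fold in mouse 3. For *Hmgcs1* the same ratios were 2.36, 4.47 and 1.25, and for *Idi1* 4.06, 10.3 and 1.13. *Srebf2* was at 1.11, 1.53 and 1.07 times the control mean. The order of the ratios in *Notch3*-/- mouse 2 ran from *Sqle* and *Idi1* over *Lss* (7.17), *Fdps* (6.96), *Cyp51* (5.16) and *Hmgcs1* to *Fdft1* (1.53) and *Srebf2*. Mouse 1 had *Sqle*, *Idi1* and *Lss* highest too, and *Srebf2* and *Fdft1* lowest. Summed over the 8 genes, the level was 259 to 313 CPM in control mice and 549, 1153 and 311 CPM in *Notch3*-/- mice 1 to 3, so that mouse 3 lay within the control range.

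In edgeR's quasi-likelihood test over 14324 genes, a gene was called at an FDR below 0.05 with a fold change of at least 1.5. Of the 8 genes 0 were called, beside 0.00698% of all genes tested, which was 1 gene, *Notch3*. At an unadjusted p below 0.05, 6 of the 8 were higher, *Hmgcs1*, *Idi1*, *Fdps*, *Sqle*, *Lss* and *Cyp51*, against 7.34% of all genes tested. All 8 reached the filter's level in at least 3 control mice, so that none was tested through the *Notch3*-/- mice alone. The log2 fold change was positive for 8 of 8, with a median of 1.63, beside a median of -0.0028 over all genes tested. *Sqle* had a log2 fold change of 3.74 (SE 0.79, p = 0.000841, FDR 0.133 from edgeR), *Idi1* 2.35 (SE 0.59, FDR 0.183) and *Hmgcs1* 1.43 (SE 0.33, FDR 0.165). *Fdps* had 1.83 (SE 0.52), *Lss* 1.94 (SE 0.66) and *Cyp51* 1.42 (SE 0.44), with FDRs of 0.237 to 0.343. *Fdft1* and *Srebf2* both had 0.31 (SE 0.17 and 0.20), with edgeR FDRs of 0.554 and 0.632. These p-values measure the spread between mice, and the counts are of PCR-amplified reads without molecular identifiers.

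The calls depended on *Notch3*-/- mouse 3 and on the tool. Without that mouse, 6 of 8 genes were called higher by edgeR, all but *Fdft1* and *Srebf2*, beside 6.02% of all genes tested. The log2 fold change of *Sqle* was then 4.27 and that of *Lss* 2.46. Without *Notch3*-/- mouse 2, 0 were called by edgeR and 4 were at an unadjusted p below 0.05, beside 6.51% of all genes in that fit. The values then came to 2.33 for *Sqle*, 1.34 for *Idi1*, 1.05 for *Lss*, 0.88 for *Fdps*, 0.85 for *Hmgcs1* and 0.52 for *Cyp51*. DESeq2 called 4 of 8 with all 7 mice, *Hmgcs1*, *Idi1*, *Sqle* and *Cyp51*, beside 3.37% of all genes. EdgeR on every gene with a count called 4, with *Fdps* in place of *Cyp51*, beside 2.18%, and limma-voom on the 21 libraries called *Hmgcs1* of 7 tested, beside 0.491%. With a hepatocyte score as a covariate in edgeR, 0 of 8 were at an unadjusted p below 0.05, beside 4.24% of all genes, and 0 of all genes were called, *Notch3* included (log2 fold change -3.39, FDR 0.123). The log2 fold changes of *Idi1*, *Fdps*, *Lss* and *Cyp51* turned negative, at -0.41, -0.42, -1.45 and -0.28, while *Sqle* came to 0.01 and *Hmgcs1* to 0.04. Of the 21 genes in the score, 4 reached the filter's level in at least 3 control mice. *Notch3*-/- mouse 1 scored 8.38, mouse 2 scored 9.25 and mouse 3 scored 2.56, while no control score exceeded 2.51. Score and genotype thus largely coincide, and the covariate fit can hardly separate them. The part of the hepatocyte genes in the sterol values was not tested. The labels of control mice 1 and 2 begin with X, those of the remaining 5 mice with k. Among the k-labelled mice, 2 control and 3 *Notch3*-/-, the values of the 8 genes were 0.13 to 3.80 with a median of 1.52, with 3 at an unadjusted p below 0.05, beside 6.38% of all genes. EdgeR called 0 of all genes in these 5 mice, *Notch3* included (log2 fold change -3.29, FDR 0.206).

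The mice were also compared without a test. *Hmgcs1* and *Sqle*, 2 of the 8 genes, were higher in every *Notch3*-/- mouse than in every control mouse, beside 4.57% of all genes tested. Mouse 1 of the *Notch3*-/- group was above every control mouse in 6 of 8 genes, beside 23.9% of all genes. Mouse 2 was above in 8 of 8, beside 29.3%. Mouse 3 was above in 3 of 8, *Hmgcs1*, *Fdft1* and *Sqle*, beside 20.1%. When *Notch3*-/- mouse 3 alone was set against the control mice in edgeR, a comparison added after the values were seen in which the lone mouse is assumed to vary like the controls, 0 of 8 were called and 0 were at an unadjusted p below 0.05, beside 5.16% of all genes in that fit. The largest positive log2 fold change was then 0.74, for *Sqle*, that of *Hmgcs1* was 0.32, and that of *Lss* was -0.95.

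The technical libraries show how far these values reach. *Hmgcs1* was at 61.5 to 85.5 CPM over the 12 control libraries (median 69.6). The 3 libraries of *Notch3*-/- mouse 3 had 64.2, 93.4 and 103 CPM, so that 1 of them lay within the control range, whereas those of mice 1 and 2 had 142 to 205 and 302 to 338 CPM. *Sqle* was at 1.12 to 7.40 CPM over the control libraries (median 2.66), and at 2.59, 7.18 and 7.41 CPM in mouse 3, 17.3 to 35.3 CPM in mouse 1 and 76.7 to 96.6 CPM in mouse 2. The separation of mice 1 and 2 from the controls was present in each of their libraries for both genes, and that of mouse 3 was not.

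To compare the genes with each other, CPM was divided by exon length in kb. In control hearts *Fdft1* was highest (19.1 ± 2.22, SD, n = 4), before *Hmgcs1* (16.0 ± 0.17), *Cyp51* (6.48 ± 1.17), *Srebf2* (5.91 ± 1.33), *Fdps* (5.46 ± 1.30), *Idi1* (4.26 ± 1.28), *Lss* (1.11 ± 0.38) and *Sqle* (0.533 ± 0.077 CPM per kb). The order of *Fdft1*, *Hmgcs1* and *Cyp51*, and of *Idi1*, *Lss* and *Sqle*, held in each of the 4 control mice. *Cyp51*, *Srebf2*, *Fdps* and *Idi1* were neighbours whose ranges overlapped, each pair having the given order in 3 of 4 mice. In *Notch3*-/- hearts *Hmgcs1* was highest (43.1 ± 26.2, SD, n = 3), before *Fdft1* (23.7 ± 4.91), and the ranges of all neighbours overlapped. *Sqle*, the lowest of the 8 in control mice at 0.533 CPM per kb, reached 16.0 CPM per kb in *Notch3*-/- mouse 2 and 4.58 in mouse 1, above *Lss* at 7.94 and 4.05.

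Along the rest of the route, 12 other enzymes were tested and 12 of 12 had a positive log2 fold change, with a median of 1.19 and a range of 0.06 to 2.24. By edgeR 0 were called, by limma-voom 0 of 12, and 10 of 12 were higher at an unadjusted p below 0.05 in edgeR, beside 7.34% of all genes tested. Without *Notch3*-/- mouse 3, 9 of 12 were called, beside 6.02% of all genes. DESeq2 with all mice called 4 of 12, beside 3.37%, and edgeR on every gene with a count 4 of 12, beside 2.18%. *Sc5d*, a sterol desaturase, had 38.2 to 53.6 CPM in control mice and 183, 414 and 47.8 CPM in *Notch3*-/- mice 1 to 3 (log2 fold change 2.24, SE 0.53). *Dhcr7*, which reduces 7-dehydrocholesterol to cholesterol, had 11.3 to 20.7 CPM in control mice and 32.8, 141 and 11.7 CPM in *Notch3*-/- mice 1 to 3. *Acat2*, the cytosolic thiolase at the entry of the route, and *Tm7sf2*, a sterol reductase, had log2 fold changes of 1.98 (SE 0.63) and 1.77 (SE 0.50). As for *Idi1*, *Fdps*, *Lss* and *Cyp51*, 4 of the 8 genes, mice 1 and 2 were high and mouse 3 lay within or below the control range in these 4 enzymes. Of the 12, 0 were higher in every *Notch3*-/- mouse than in every control mouse, beside 4.57% of all genes tested. Summed over the 12 enzymes the level was 287 to 323 CPM in control mice and 659, 1295 and 293 CPM in *Notch3*-/- mice 1 to 3, with mouse 3 within the control range.

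**Figure D2:**
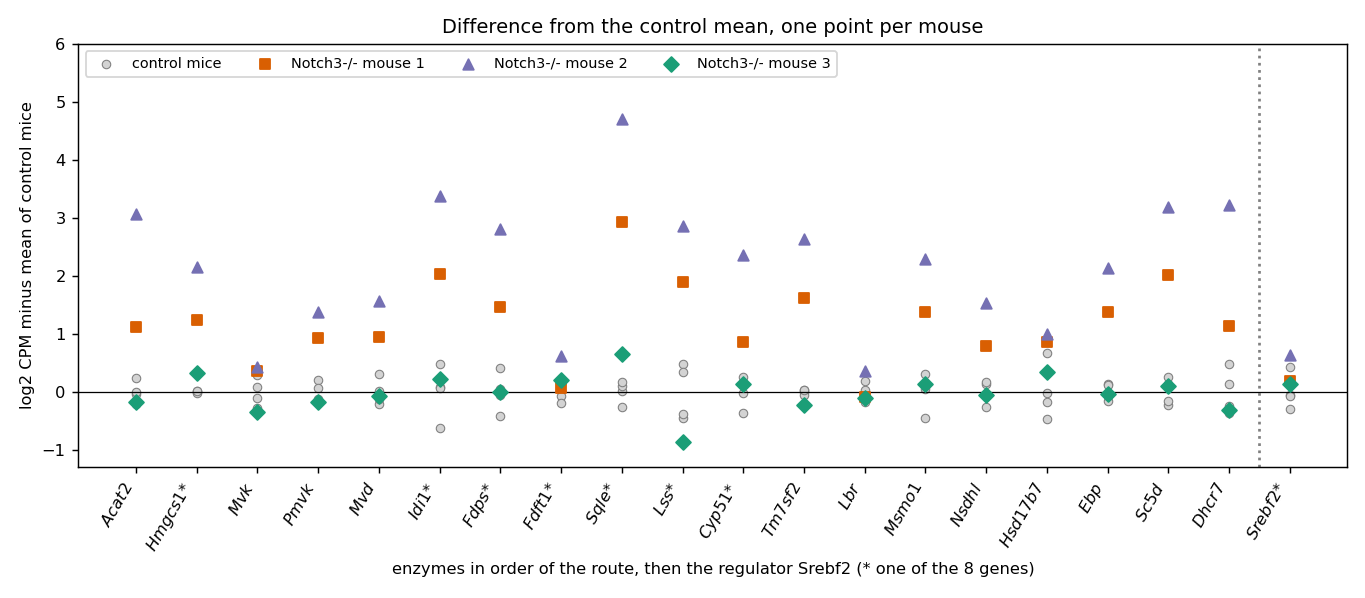
Difference of each mouse from the control mean in log2 CPM, for 19 enzymes in the order of the route and for *Srebf2* behind the dotted line; an asterisk marks the 8 genes. *Notch3*-/- mouse 2 (triangles) is highest at each gene, with *Sqle* at 4.71, mouse 1 (squares) follows at most of them, and mouse 3 (diamonds) lies near the control mice (grey) except at a few genes such as *Sqle* (0.66) and *Lss* (-0.87).

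The genes around SREBP2 were less even. Of 6 genes of SREBP control, 6 had a positive log2 fold change (median 0.65), 3 of them at an unadjusted p below 0.05, beside 7.34% of all genes tested. EdgeR called 0, and DESeq2 and limma-voom each called 1, *Srebf1*, beside 3.37% and 0.491% of all genes; without *Notch3*-/- mouse 3 edgeR called 3, beside 6.02%. *Insig1*, itself an SREBP target that holds SCAP back when sterols are plentiful, had 43.1 to 62.2 CPM in control mice and 111, 295 and 41.6 CPM in *Notch3*-/- mice 1 to 3, where mouse 3 lay below every control mouse. *Srebf1*, the sister factor of lipid synthesis, had 123, 80.7, 95.3 and 132 CPM in control mice 1 to 4 and 169, 317 and 150.1 CPM in *Notch3*-/- mice 1 to 3. *Scap* had 34.6 to 48.1 CPM in control mice and 70.0, 107 and 49.9 CPM in *Notch3*-/- mice 1 to 3. *Srebf1* and *Scap*, 2 of the 6 genes, were thus higher in each *Notch3*-/- mouse than in each control mouse, beside 4.57% of all genes tested. *Insig2*, with a log2 fold change of 0.49 (SE 0.24), overlapped.

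Of 3 genes of sterol uptake and transport under SREBP2, 2 passed the filter, *Stard4* and *Tmem97*. Both were higher at an unadjusted p below 0.05 in edgeR, beside 7.34% of all genes tested. EdgeR called 0, and DESeq2 and limma-voom each called 1 of 2, *Tmem97*, beside 3.37% and 0.491% of all genes. Without *Notch3*-/- mouse 3 edgeR called 2 of 2, beside 6.02%. These counts rest on 2 genes. *Tmem97*, a regulator of intracellular sterol transport, had 5.93, 5.90, 8.23 and 8.02 CPM in control mice 1 to 4 and 22.1, 45.9 and 11.2 CPM in *Notch3*-/- mice 1 to 3. All 3 mice of the *Notch3*-/- group were above the control range for *Tmem97*, with a log2 fold change of 1.91 (SE 0.43). *Stard4*, a sterol carrier, had a log2 fold change of 1.63 (SE 0.66), with mouse 3 (4.35 CPM) below every control mouse (5.69 to 10.8 CPM). Under the filter was *Npc1l1*, with 0 to 7 counts in every mouse.

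The isoprenoid branch, which takes the same farnesyl diphosphate to ubiquinone, dolichol and protein prenylation, gave values near 0. Of 8 genes tested 2 had a positive and 6 a negative log2 fold change (median -0.08). By edgeR, DESeq2 or limma-voom 0 were called, where DESeq2 called 3.37% of all genes higher and limma-voom 0.491%. At an unadjusted p below 0.05 in edgeR there were 0 too, beside 7.34% of all genes tested higher and 3.05% lower. With 8 genes, a count of 0 lies near these shares. *Coq2* had -0.28 (SE 0.17), *Pdss1* 0.25 (SE 0.20), *Fntb* -0.15 (SE 0.15) and *Ggps1* 0.14 (SE 0.16). In *Notch3*-/- mouse 2, the median difference in log2 CPM from control was -0.11 over the branch, beside 2.58 over the 8 sterol synthesis genes.

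Export and storage genes lay between. In export and its LXR receptors, 6 of 8 genes were tested, with 4 positive values and a median log2 fold change of 0.35. *Apoe*, the apolipoprotein, had 0.94 (SE 0.33), *Nr1h3* (LXR alpha) 0.74 (SE 0.29), *Abca1*, the cholesterol exporter, 0.56 (SE 0.31) and *Nr1h2* (LXR beta) -0.15 (SE 0.17). In storage and oxidation, 7 of 10 were tested, with 6 positive values and a median of 0.98. Of these, *Soat2* and *Ch25h* reached the filter's level in fewer than 3 control mice. Over the 5 other tested genes the median was 0.52. *Soat2*, which esterifies cholesterol, had 2.27 (SE 0.87), *Ch25h* 1.73 (SE 0.74), *Lipa*, the lysosomal lipase, 1.04 (SE 0.38) and *Cyp27a1*, a sterol hydroxylase, 0.98 (SE 0.39). In these lists edgeR called 0 genes, with 2 of the export genes higher at an unadjusted p below 0.05 (7.34% of all genes tested). Of the storage genes *Lipa* and *Cyp27a1* were so, and *Soat2* and *Ch25h* too, which were tested through the high *Notch3*-/- mice and are not counted. DESeq2 called 0 of 7 and 1 of 9 (*Cyp8b1*), beside 3.37%. Without *Notch3*-/- mouse 3 edgeR called *Apoe* of the export genes and *Lipa* and *Cyp27a1* of the storage genes, beside 6.02% of all genes. It then also called *Abcg5*, *Cyp7a1*, *Cyp7b1* and *Cyp8b1*, which do not pass the filter with all 7 mice and had 0 to 9 counts in each control mouse, so that they were tested through the high *Notch3*-/- mice. Under the filter with all mice were *Abcg5* and *Abcg8*, exporters into bile, and the bile acid enzymes *Cyp7a1*, *Cyp7b1* and *Cyp8b1*. *Abcg5* had counts of 13, 136 and 0 and *Abcg8* of 1, 97 and 0 in the *Notch3*-/- group, beside 0 or 1 in each control mouse. *Cyp8b1* had counts of 0, 9, 2 and 0 in the control group and of 168, 1506 and 10 in the *Notch3*-/- group.

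**Figure D3:**
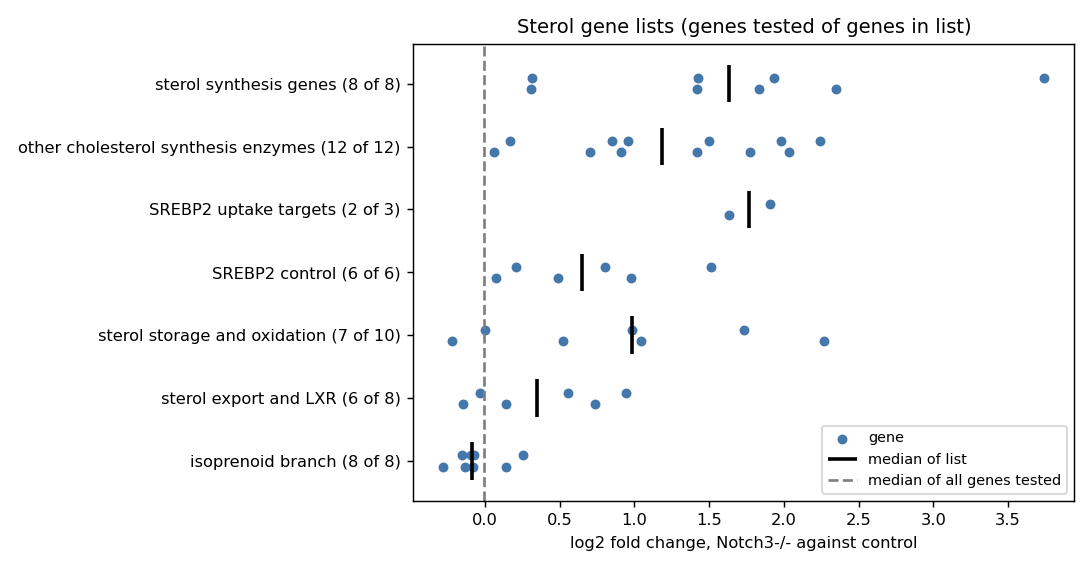
Log2 fold change of *Notch3*-/- against control for the tested genes of 7 sterol lists (blue points), with the median of each list (black bar) and of all genes tested (dashed line). The medians run from 1.77 for uptake genes and 1.63 for the 8 sterol synthesis genes to -0.08 for the isoprenoid branch. The storage list includes *Soat2* and *Ch25h*, which were tested through the high *Notch3*-/- mice.

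The 8 genes were set beside the hepatocyte list in each mouse. The median log2 difference of the 8 genes from the control mean was -0.14 to 0.15 in the control mice and 1.35, 2.58 and 0.17 in *Notch3*-/- mice 1 to 3. The mice with high hepatocyte sums were those with high sterol synthesis genes, and mouse 2 was above mouse 1 in both. The ratio of mouse 2 to mouse 1 in CPM above the control mean was 2.32 to 11.5 (median 3.63) over the 8 genes. Over the 6 of the 8 genes in which mouse 1 lay above every control mouse it was 2.32 to 5.23 (median 3.24). It was 1.10 to 4.86 over the 24 hepatocyte genes (median 2.14) and 1.81 for their sum. The ranges over the genes overlapped, while the lowest ratio of the 8 genes, 2.32, lay above the hepatocyte median and the ratio of the sum. Genes of the same mice are not replicates, and the reason for the ratios was not tested. For each 1000 CPM of the hepatocyte list above its control mean, *Hmgcs1* was 12.1 CPM above its own in mouse 1 and 17.1 CPM in mouse 2, and *Sqle* 2.72 and 5.74 CPM. The sum of mouse 3 was 99.5 CPM above the control mean and lay within the spread of the control mice, so that no such ratio is read. Mouse 3 of the *Notch3*-/- group had a hepatocyte sum (176 CPM) below that of control mouse 2 (184 CPM). It had more *Hmgcs1* (91.7 against 73.3 CPM) and *Sqle* (4.92 against 3.16 CPM) than that mouse, and more *Fdps*, *Fdft1* and *Srebf2*. *Lss* (6.05 against 8.22 CPM), *Idi1* (16.8 against 20.2 CPM) and *Cyp51* (31.2 against 33.7 CPM) were lower. The order of these 2 mice in hepatocyte genes turns with the measure: by the mean log2 CPM of 21 hepatocyte genes mouse 3 (2.56) lay above control mouse 2 (2.51).

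**Figure D4:**
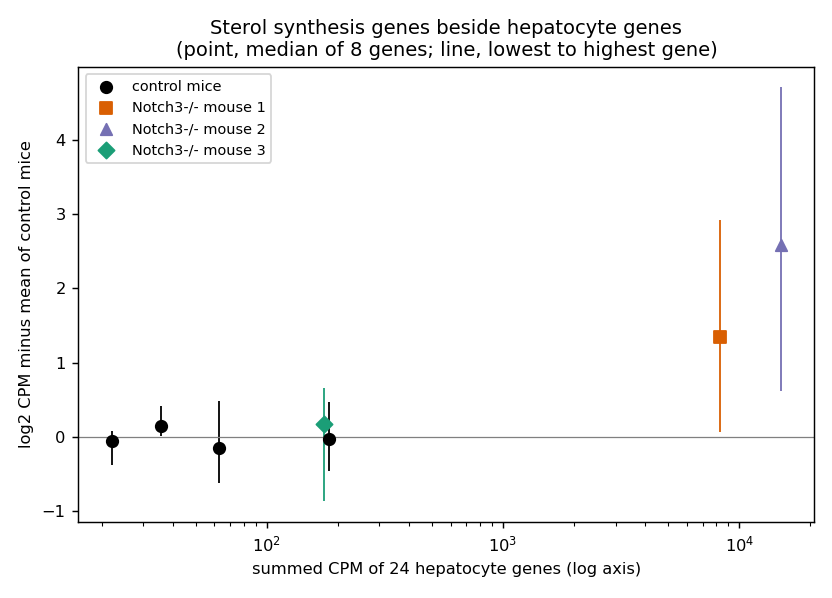
Median log2 difference of the 8 sterol synthesis genes from the control mean (point; line from the lowest to the highest gene) against the summed CPM of 24 hepatocyte genes on a log axis, for each of the 7 mice. *Notch3*-/- mouse 1 (8328 CPM) and mouse 2 (15025 CPM) lie apart at the upper right, and mouse 3 (176 CPM) lies beside the control mice.

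Among 10720 genes with a mean of at least 10 CPM outside the 8, the 8 whose log2 differences over the 7 mice were nearest to the median of the sterol synthesis genes were *Sephs2*, *Lgals9*, ENSMUSG00000085214, *Serpinf1*, *Fah*, *Slco2a1*, *Fpgs* and *Shmt1*. Their root mean square differences from it were 0.12 to 0.18 on the log2 scale. *Sephs2*, which makes selenophosphate, had 1.17, 2.69 and 0.30 in *Notch3*-/- mice 1 to 3, beside 1.35, 2.58 and 0.17 for the sterol synthesis genes. The nearest enzymes of the route outside the 8 were *Tm7sf2*, *Ebp* and *Msmo1*, at ranks 11, 12 and 15, named after their ranks were seen. The 8 genes themselves lie on 6 chromosomes, with *Hmgcs1* and *Idi1* on chromosome 13 and *Sqle* and *Srebf2* on chromosome 15.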

How the data were processed

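The authors deposited counts, whole numbers of reads per gene without normalization, for 46517 Ensembl genes and 92 ERCC sequences (34 counts, left out) in 21 libraries. The submitters' processing notes name CASAVA and mm10; the aligner, the counting program, the annotation and the treatment of duplicates are not given in the sources used here. Symbols, coordinates and exon lengths came from GENCODE vM21 (GRCm38), which holds 46005 of the identifiers.

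Technical libraries were summed per mouse. Genotypes came from the sample labels. Genes were tested in R 4.3.3 with edgeR 4.0.16 (filterByExpr, TMM, quasi-likelihood F-test, genotype as the only term), with Benjamini-Hochberg adjustment. For log2 CPM 2 counts were added as a prior; a ± value is an SD. The alternatives were DESeq2 1.42.0, RLE factors, TMM factors without the hepatocyte list, every gene with at least 1 count, each mouse left out, k-labelled mice only, a hepatocyte score (mean log2 CPM of 21 genes) as a covariate, limma 3.58.1 voom on 21 libraries with the mouse as a random effect, with and without the technical replicate number as a block, each technical library number alone, and no fold threshold. *Notch3*-/- mouse 3 against the control mice was added after seeing the data.

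The 8 genes and the gene lists were chosen with earlier results of these data known. Some genes of the other sterol lists are not reported, and every list count, sum and median is over the remaining genes. Named genes are the 8, *Notch3*, up to 4 genes of each other sterol list with the largest absolute log2 fold change, the most abundant gene of each marker list with *Alb*, *Apoa1* and *Cps1*, and the 8 genes nearest in profile (smallest root mean square difference over the 7 mice); others are marked or did not pass the filter. The pipeline was tested on simulated data, in which a changed gene had the same fold change in every *Notch3*-/- mouse. Mice that differ within a group, as in these data, were not simulated. Promoter windows and motif letters were read with Python 3.11.15, and figures were drawn with matplotlib 3.10.9.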

Additional observations from a re-analysis of the deposited data

How the results depend on the processing

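Of the 8 log2 fold changes, 126 values were computed under the alternatives: 104 kept the direction and stayed uncalled, 16 kept the direction and were called, and 6 changed sign. Those 6 were *Idi1* (-0.41), *Fdps* (-0.42), *Lss* (-1.45) and *Cyp51* (-0.28) with the hepatocyte score as a covariate, and *Fdps* (-0.026) and *Lss* (-0.95) for *Notch3*-/- mouse 3 only, a setting chosen after seeing the data. The hepatocyte score was higher in every *Notch3*-/- mouse than in every control mouse, so the covariate fit can hardly separate it from genotype. The cause of the sign changes was not tested.

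Among all genes, 1 was called by edgeR with all 7 mice, 601 by DESeq2, 639 with every gene with at least 1 count, 65 by limma-voom on 21 libraries, 0 in the k-labelled mice and 0 with the hepatocyte covariate; leaving out each mouse gave 1 to 936, the highest without *Notch3*-/- mouse 3. Of the 8 genes, 0 were called with all mice, 4 by DESeq2, 4 with every gene, 1 by limma-voom and 0 to 6 with a mouse left out. At an unadjusted p below 0.05, 6 of 8 were higher with all mice, beside 7.34% of all genes tested. In either direction there were 3 in the k-labelled mice, beside 6.38%, and 0 with the covariate, beside 4.24%. With a mouse left out there were 4 to 7. The 4 were without *Notch3*-/- mouse 2, beside 6.51%, and no share of all genes was taken for the other mice left out. Of the other enzymes, 0 were called with all mice, 4 by DESeq2, 4 with every gene and 0 to 9 with a mouse left out. Of the 8 genes, 2 were higher in every *Notch3*-/- mouse than in every control mouse, beside 4.57% of all genes tested. There were 2 also with RLE factors or with TMM factors without the hepatocyte list, and 2, 3 and 2 with technical library 1, 2 and 3 alone. No share of all genes was taken for these settings.

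The technical replicate numbers are shared by the groups in the labels. With that number as a replicate block in limma-voom, 62 genes and 1 of the 8 were called. Libraries of the same number did not deviate together (median correlation -0.011 over 63 pairs), and 5 of 21 libraries correlated best with a library of their own number, so the numbers do not pair the samples. At 9 to 15 counts of *Sqle* per control mouse, depth limits the precision of its control level.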
